A study of Mus musculus with 6 samples.

Results

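The genes of glycolysis, gluconeogenesis, fructose breakdown and glycogen turnover were examined as 42 gene symbols, chosen as enzymes and regulators of these paths and taken from the count table by symbol. They matched 43 of its 54532 rows, since Aldoa has 2 rows, and 41 of these rows were among the 14873 that held enough reads to be tested. The second Aldoa row (ENSMUSG00000114515), with 8 reads in all, and Fbp2 were not tested. RNA was sequenced from hepatocytes isolated from C57BL/6 mice, 32 to 34 weeks old, after 26 weeks on a high-fat diet. The 3 XCON libraries came from mice with floxed Xbp1 (Xbp1FL/FL) and the 3 XCKO libraries from mice lacking Xbp1 in hepatocytes (Xbp1ΔHep), which codes for a transcription factor active in endoplasmic reticulum stress. What drives Cre in these mice is not stated in the labels. No mouse is named for a single library, so p-values measure only the spread between these libraries.

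Liver takes up glucose after a meal, splits it through glycolysis or stores it as glycogen, and in fasting releases it again from glycogen and from new synthesis out of pyruvate, lactate, glycerol and amino acids. Most glycolytic steps are reversible and serve both directions, while a few are one-way and have separate enzymes for breakdown and for synthesis. Fructose enters below the main control point of glycolysis through ketohexokinase. Many of these enzymes exist as a hepatic form and as forms found mainly in muscle, blood cells or other tissues.

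Levels are given as CPM, read counts scaled by TMM to a common library size, as mean ± SD over 3 libraries, and log2 fold changes are XCKO minus XCON ± SE. A gene was said to have risen or fallen when edgeR's quasi-likelihood test, adjusted over all tested genes, gave it an adjusted p under 0.05. Total counts were between 23919355 and 27240079 per library. Xbp1 itself, the deleted gene, stood at 171, 294 and 319 CPM in XCON and 59.0, 39.3 and 67.4 CPM in XCKO (−2.24 ± 0.29, adjusted p = 0.0084). XCON 1 stood apart with 22.8% of its reads on mitochondrial genes, against 8.99% to 13.1% in the other libraries. Summed levels of 10 hepatocyte markers were 70656 to 94552 CPM in XCON and 94430.3 to 126436 CPM in XCKO, and all 10 had a positive log2 fold change, of which 1 passed the test. All 10 macrophage markers and all 8 stellate cell markers had a negative log2 fold change, 1 and 2 of them passing, with summed levels of 1267 to 2479 against 423 to 1185 CPM for macrophages and 257 to 602 against 103 to 256 CPM for stellate cells. All 5 cholangiocyte markers were also negative, with none passing and sums of 251 to 582 against 82.4 to 162 CPM. Most of that sum was Spp1 (345 ± 190 in XCON and 103 ± 46 CPM in XCKO), and Krt19, Krt7 and Epcam had means of at most 4.35 CPM. Red cell genes summed to 42.1 to 70.0 CPM in XCON and to 405, 77.4 and 917 CPM in XCKO 1, 2 and 3. The summed endothelial markers were 429.9 to 443 and 326 to 703 CPM, and those of lymphocytes and neutrophils 3.82 to 25.9 and 4.42 to 63.5 CPM. The adipocyte list summed to 291 to 451 and 167 to 307 CPM, most of it Lpl (299 ± 83 and 144 ± 47 CPM). Lep was at 0 in all libraries, and Adipoq, Plin1 and Retn had 0 to 3 reads in each. Muscle markers summed to 0.403 to 0.962 and 0.233 to 0.692 CPM, with Ckm at 0 in all libraries. The part of these differences in the results below was not tested, and in bulk RNA fewer cells of a type and less RNA per cell cannot be told apart.

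In XCKO hepatocytes 9 of the 41 tested carbohydrate genes rose and 1 fell. The genes that rose were Pcx, Fbp1 and Slc37a4 of gluconeogenesis, Khk of fructose breakdown, Pfkl, Tpi1 and Pgk1 of the glycolytic path, and Pgm2 and Ppp1r3b of glycogen turnover. The gene that fell was Pfkfb3, which codes for a bifunctional enzyme that sets the level of fructose 2,6-bisphosphate. Of all tested genes 5.21% rose and 4.05% fell, against 22.0% and 2.44% of the tested carbohydrate genes. Their median log2 fold change was 0.40, with a range of −1.59 to 1.25, and that of all tested genes was −0.05. A positive value was found for 29 of the tested carbohydrate genes and a negative one for 12. The 10 hepatocyte markers, all positive, had a median log2 fold change of 0.53, so a shift of this size was not particular to carbohydrate genes. The XCKO libraries lay wholly above the XCON libraries for 17 of the 41 tested carbohydrate genes and wholly below for 3. Of all 14873 tested genes, 2614 (17.6%) lay wholly above and 2691 (18.1%) wholly below.

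Most of these calls were lost in at least 1 of the fits that left out a library. Fewer of all tested genes were also called in those fits. Pcx and Pfkfb3 passed in all 6 fits that left out 1 library, with largest adjusted p-values of 0.046 and 0.044 by edgeR's quasi-likelihood test, and Khk was lost only without XCKO 3. Without XCON 1, the library rich in mitochondrial reads, 2 carbohydrate genes rose, Pcx and Khk, and 1 fell. Without XCKO 3, 1 rose and 1 fell. Scaling by library totals moved the median of all tested genes from −0.05 to −0.31 and that of the carbohydrate genes from 0.40 to 0.13. Pcx, Fbp1 and Khk were still called higher on that scale, while Pfkl, Tpi1, Pgk1, Slc37a4, Pgm2 and Ppp1r3b kept positive values of 0.40 to 0.63 with adjusted p-values of 0.063 to 0.16. Removing a trend with gene length ended the calls of Tpi1, Pgk1, Fbp1, Slc37a4 and Pgm2 (adjusted p of 0.053 to 0.079). The calls of Tpi1, Pgk1 and Pgm2 were also lost by limma on log2 FPKM (0.051 to 0.057). In the authors' deposited table, of the 43 rows 14 had an adjusted p under 0.05 and a higher level in XCKO, and 3 a lower level, beside 5.51% and 4.66% of all 24709 genes listed with a comparison there. Hk3, Pfkp, Pgam1, Pklr, Ldha, Ldhd and Gys2 were called in that table and not by edgeR's quasi-likelihood test.

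**Figure D1:**
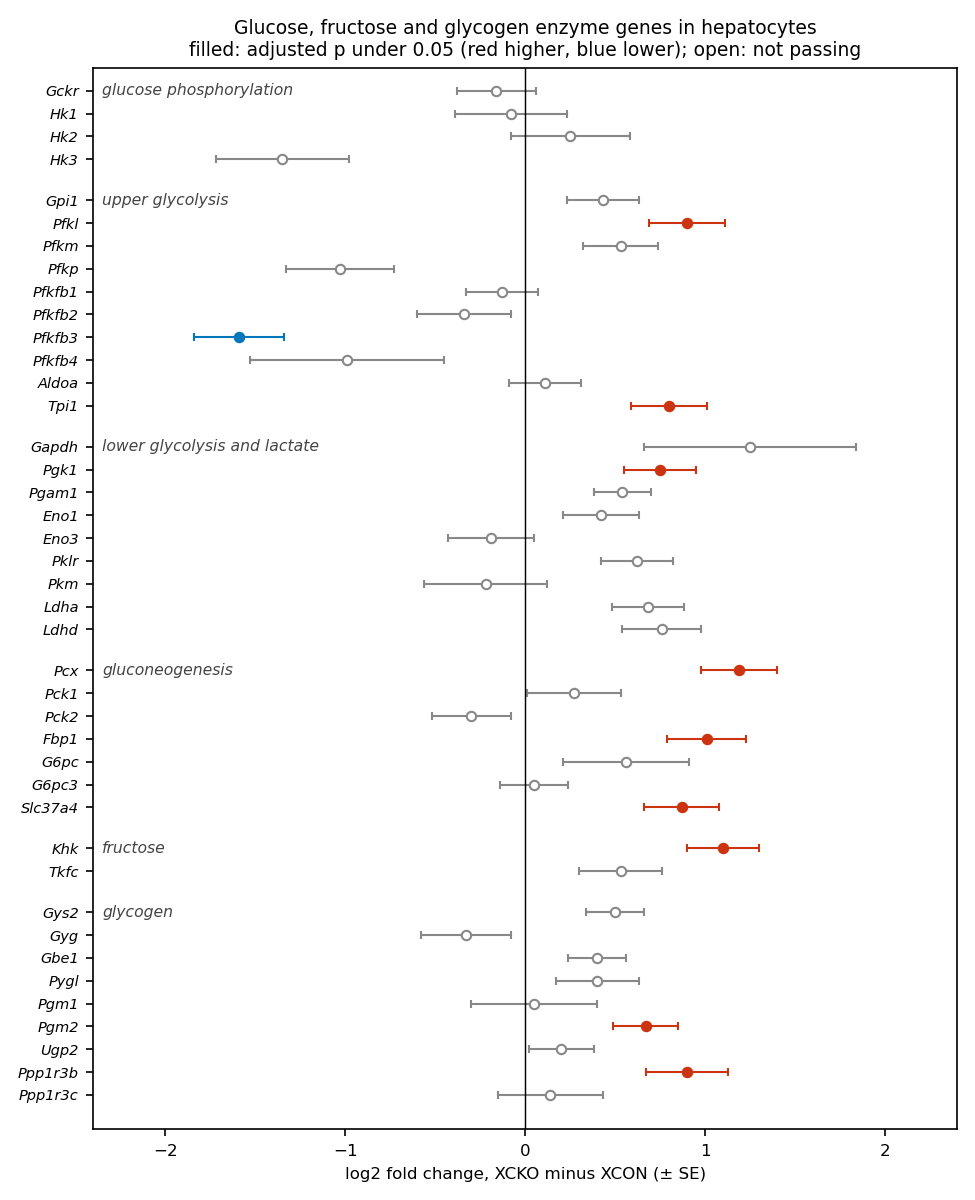
Log2 fold change (XCKO minus XCON, x axis) of each of the 41 tested carbohydrate genes, grouped by role, with bars for ± 1 SE. Filled points passed edgeR's quasi-likelihood test at an adjusted p of 0.05: 9 lie to the right of 0 and Pfkfb3, at −1.59, is the 1 to the left.

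None of the 4 tested genes of glucose phosphorylation passed the test. Gckr codes for a liver regulatory protein that restrains glucose phosphorylation when glucose is low. It stood at 327, 243 and 289 CPM in XCON and 254, 321 and 192 CPM in XCKO (−0.16 ± 0.22, adjusted p = 0.65 by edgeR's quasi-likelihood test), and the groups overlapped. The hexokinases Hk1, Hk2 and Hk3, found mainly outside hepatocytes, were less abundant by FPKM, a count per gene length, with XCON means of 0.902 ± 0.24, 2.09 ± 0.87 and 7.13 ± 1.9 against 64.4 ± 9.9 for Gckr. Hk3, a hexokinase of myeloid cells, was read at 22.1, 35.6 and 23.3 CPM in XCON and 13.5, 5.28 and 13.1 CPM in XCKO (−1.35 ± 0.37, adjusted p = 0.061). All XCKO values lay below all XCON values, and XCKO 2, the library with the lowest macrophage marker sum, was the lowest. The opposite-strand Unc5a held 11.4% as many reads as Hk3. Hk1 and Hk2 had values of −0.08 ± 0.31 and 0.25 ± 0.33 and did not pass. Shares were taken among these 3 genes only, so they are not shares of all hepatic glucose phosphorylation. On the FPKM scale Hk3 made up 62.7%, 71.2% and 78.4% of the summed Hk1, Hk2 and Hk3 level in XCON and 47.1%, 30.9% and 54.3% in XCKO. The share of Hk2, the form induced in proliferating cells and muscle, was 20.4% ± 6.9 in XCON and 42.2% ± 13 in XCKO. In XCKO the level of Hk2 itself was 2.55 ± 0.44 FPKM and that of Hk3 2.90 ± 1.3 FPKM.

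In upper glycolysis, from glucose 6-phosphate to the triose phosphates, 2 of 10 tested genes rose and 1 fell. Pfkl (ENSMUSG00000020277, chr10:77986947-78010083 on mm10, minus strand) codes for the liver subunit of phosphofructokinase, the committed step. Its levels were 37.3, 25.3 and 32.6 CPM in XCON and 71.5, 45.3 and 61.5 CPM in XCKO. Every XCKO library lay above every XCON library, with XCKO 2 the nearest to the controls. The log2 fold change was 0.90 ± 0.21 (adjusted p = 0.033 by edgeR's quasi-likelihood test). The call held without XCKO 2 and was lost when any other single library was left out, with a largest adjusted p of 0.093 without XCKO 3.

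Tpi1, triose phosphate isomerase (ENSMUSG00000023456, chr6:124810586-124814296, minus strand), stood at 165, 149 and 192 CPM in XCON and 265, 243 and 375 CPM in XCKO. The groups did not overlap, and XCKO 3 was the highest. The log2 fold change was 0.80 ± 0.21 (adjusted p = 0.046 by edgeR's quasi-likelihood test), and the call held only when XCKO 2 was the library left out, with an adjusted p of up to 0.12. The opposite-strand gene Spsb2, which overlaps Tpi1, held 4.46% as many reads, and 669 reads beside the 35515 of Tpi1 were counted for its copy Tpi-rs11.

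Pfkfb3 (ENSMUSG00000026773, chr2:11471433-11554077, minus strand) was the carbohydrate gene with the most negative log2 fold change. Fructose 2,6-bisphosphate, which PFKFB enzymes make and remove, activates phosphofructokinase and inhibits fructose 1,6-bisphosphatase, and the Pfkfb3 product mostly makes it. Its levels were 17.8, 18.8 and 30.3 CPM in XCON and 7.81, 5.86 and 8.56 CPM in XCKO. All XCKO libraries lay below all XCON libraries, and they differed little among themselves. The level was 3.01-fold lower in XCKO (log2 fold change −1.59 ± 0.25, adjusted p = 0.012 by edgeR's quasi-likelihood test). Pfkfb3 is also expressed in macrophages and stromal cells, whose markers were lower in the same libraries, and their part in this fall was not tested.

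Pfkfb1, the hepatic form controlled by glucagon through phosphorylation, was at 28.0 ± 7.5 CPM in XCON and 25.6 ± 1.9 CPM in XCKO (−0.13, adjusted p = 0.70 by edgeR's quasi-likelihood test). Its share of the summed FPKM of Pfkfb1 to Pfkfb4 was 46.1%, 56.5% and 53.5% in XCON and 61.6%, 67.3% and 67.1% in XCKO. The share of Pfkfb3 was 22.3%, 18.1% and 25.7% in XCON and 10.6%, 7.59% and 12.1% in XCKO. The groups did not overlap in either share. The opposite-strand Apex2 held 27.4% as many reads as Pfkfb1, so its count and these shares are uncertain without strand. Pfkfb2, the heart form, and Pfkfb4 had negative values that did not pass (adjusted p = 0.42 and 0.26), and nearly as many reads were counted for the opposite-strand gene Yod1 as for Pfkfb2 (93.4%), so without strand the Pfkfb2 count is uncertain.

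The other phosphofructokinase subunits did not pass. Pfkp, the platelet form, stood at 10.7, 12.5 and 8.25 CPM in XCON and 6.44, 2.99 and 5.97 CPM in XCKO (−1.03 ± 0.30, adjusted p = 0.064 by edgeR's quasi-likelihood test). Its groups did not overlap, but the opposite-strand gene Pitrm1, which shares its locus, held 499% as many reads. Pfkm, the muscle form, had 0.53 ± 0.21 (adjusted p = 0.13), with reads of the opposite-strand Senp1 at 90.6% of its own. By FPKM, Pfkl made up 55.5% ± 8.0 of the 3 subunits in XCON and 64.9% ± 3.7 in XCKO, ranges that overlapped, while the share of Pfkp was 9.37% ± 2.9 and 2.74% ± 0.63 with no overlap. Gpi1, which interconverts glucose and fructose 6-phosphate, had 0.43 ± 0.20 (adjusted p = 0.20). Aldoa (ENSMUSG00000030695), the aldolase of muscle and red cells, stood at 102 ± 9.7 and 110.4 ± 27 CPM (0.11 ± 0.20, adjusted p = 0.75).

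**Figure D2:**
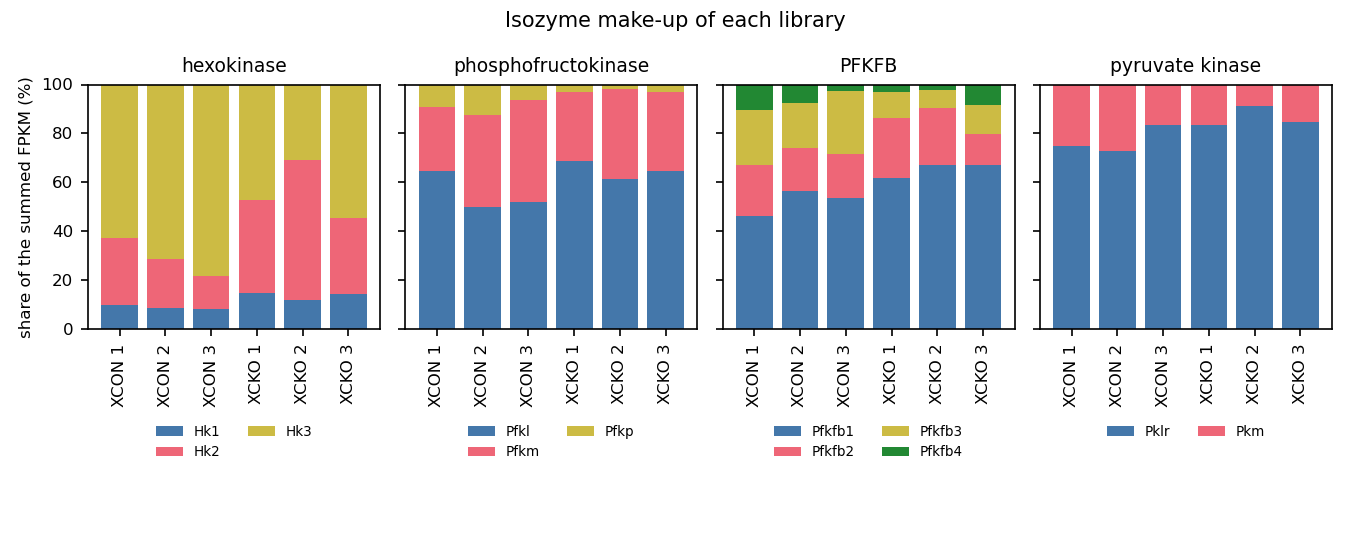
Share of each isozyme (y axis, percent of the family's summed FPKM) in each of the 6 libraries, for the hexokinases Hk1 to Hk3, phosphofructokinase, PFKFB and pyruvate kinase. Pfkfb3 takes 18.1% to 25.7% of its family in XCON and 7.59% to 12.1% in XCKO, and Hk3 takes 62.7% to 78.4% of the sum of Hk1, Hk2 and Hk3 against 30.9% to 54.3%.

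In lower glycolysis and lactate metabolism 1 of 9 tested genes rose and none fell, and the median log2 fold change was 0.62. Pgk1, phosphoglycerate kinase (ENSMUSG00000062070, chrX:106187100-106203699, plus strand), catalyses the first step of glycolysis that yields ATP. It stood at 134, 120 and 177 CPM in XCON and 231, 221 and 275 CPM in XCKO. The groups did not overlap, and XCON 3 and XCKO 3 were the highest of their groups. The log2 fold change was 0.75 ± 0.20 (adjusted p = 0.045 by edgeR's quasi-likelihood test), and the call was lost without any library other than XCON 3, with an adjusted p of up to 0.12.

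The 250 bases before the start of Pgk1 are shown because this promoter holds GACGTG, a word searched for, in both orientations. XBP1 can bind elements with an ACGT core, but binding of any factor here was not tested. The stretch is chrX:106186850-106187099, plus strand, from RefSeq on GRCm38.p6, with capitals for GACGTG or its reverse complement CACGTC, whose first bases lie 151 and 131 bases before the start.
Pgk1: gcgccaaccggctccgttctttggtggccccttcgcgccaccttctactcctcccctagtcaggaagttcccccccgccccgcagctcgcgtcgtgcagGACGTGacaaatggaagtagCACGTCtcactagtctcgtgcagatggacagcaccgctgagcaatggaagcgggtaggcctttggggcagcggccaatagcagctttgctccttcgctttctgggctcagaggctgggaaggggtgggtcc

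Of the 9 tested lower-path genes 6 had groups that did not overlap, all higher in XCKO, beside 17.6% of all tested genes. The threshold was missed by 5 of these 6. Pklr, the pyruvate kinase of liver and red cells, stood at 154, 143 and 196 CPM in XCON and 277, 207 and 273 CPM in XCKO. The lowest XCKO library, XCKO 2, was only just above the highest control (0.62 ± 0.20, adjusted p = 0.076 by edgeR's quasi-likelihood test). The opposite-strand Hcn3 held 7.75% as many reads as Pklr. Pkm, the form of most other tissues, was at 80.7, 82.9 and 60.3 CPM in XCON and 84.1, 31.4 and 76.4 CPM in XCKO (−0.22 ± 0.34, adjusted p = 0.70). The Pklr share of the summed pyruvate kinase FPKM was 76.9% ± 5.7 in XCON and 86.4% ± 4.0 in XCKO, the highest control library (83.4%) lying beside the lowest XCKO library (83.6%). XCKO 2 had the lowest Pkm share, 8.95%.

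Ldha, the lactate dehydrogenase subunit that converts pyruvate and lactate, was the most abundant transcript of the lower path by FPKM (169 ± 18 in XCON and 277 ± 52 in XCKO). In CPM it stood at 540.5, 547 and 630.2 in XCON and 1044, 737 and 964 in XCKO (0.68 ± 0.20, adjusted p = 0.061 by edgeR's quasi-likelihood test). Ldhd, which acts on D-lactate, had 0.76 ± 0.22 (adjusted p = 0.064), and 31.5% as many reads belonged to the opposite-strand Znrf1. Pgam1 had 0.54 ± 0.16 (adjusted p = 0.063), Eno1 0.42 ± 0.21 (0.21) and Eno3, the muscle enolase, −0.19 (0.64). Eno1 had 93392 reads in all, and its near-identical copy Eno1b 2461, a split that depends on the counting. These 3 enzymes carry 3-phosphoglycerate to phosphoenolpyruvate.

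Gapdh was read at 20.3, 42.6 and 23.2 CPM in XCON and 39.1, 132 and 33.7 CPM in XCKO. XCKO 2 stood far above the rest and the groups overlapped (1.25 ± 0.59, adjusted p = 0.22 by edgeR's quasi-likelihood test), and without XCKO 2 the log2 fold change was 0.40. These levels are low for a gene that all cells use heavily. A search by gene name and description found 5 copies of Gapdh with 4 reads in all, beside 7524 for Gapdh. Copies under other names were not searched for, and sequences were not compared. The opposite-strand Iffo1 held 21.3% as many reads. The labels do not say how reads matching several copies or both strands were counted, so the values of Gapdh are uncertain, and the part of either in its level was not tested.

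**Figure D3:**
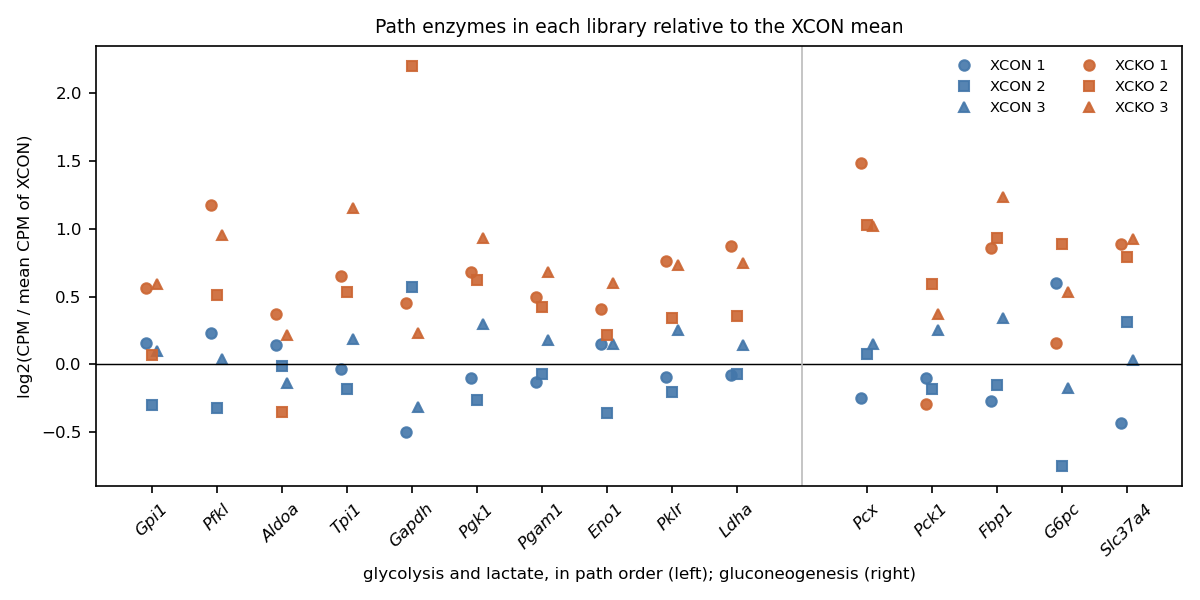
Log2 ratio of each library's CPM to the XCON mean (y axis) for glycolytic genes in the order of the path and for gluconeogenic genes (x axis), with XCON in blue and XCKO in orange, and a marker shape for each library number. Pcx, Fbp1 and Slc37a4 lie above 0.5 in all XCKO libraries, while Pck1 and G6pc do not, and Gapdh in XCKO 2 stands alone at the top.

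Gluconeogenesis held 3 of the 9 genes that rose, out of 7 tested, with a median log2 fold change of 0.56 and none that fell. Pcx, mitochondrial pyruvate carboxylase (ENSMUSG00000024892, chr19:4510472-4621752, plus strand), makes oxaloacetate from pyruvate in the first step of the path. Its levels were 398, 499 and 525 CPM in XCON and 1319.8, 969.7 and 962 CPM in XCKO. Every XCKO library stood well above every control, XCKO 1 the most. The level was 2.29-fold higher in XCKO (1.19 ± 0.21, adjusted p = 0.017 by edgeR's quasi-likelihood test).

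Pcx is shown as the rising gene whose call held in every fit without 1 library. RefSeq gives it 2 promoters, and the one shown lies before the start of the gene as listed. The other, chr19:4594069-4594318, is inside the gene and holds none of the motifs searched. The 250 bases before the first start, chr19:4510222-4510471, plus strand, from RefSeq on GRCm38.p6, hold CACGTG 248 and GACGTG 141 bases before the start, in capitals.
Pcx: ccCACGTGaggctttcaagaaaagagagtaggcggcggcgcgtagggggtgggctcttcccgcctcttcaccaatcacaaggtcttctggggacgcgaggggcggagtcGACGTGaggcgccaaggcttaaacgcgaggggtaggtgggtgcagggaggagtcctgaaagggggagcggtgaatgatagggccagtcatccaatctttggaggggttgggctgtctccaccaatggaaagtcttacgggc

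Fbp1, fructose 1,6-bisphosphatase (ENSMUSG00000069805, chr13:62864753-62888282, minus strand), opposes phosphofructokinase. It stood at 561, 611 and 855 CPM in XCON and 1227, 1285 and 1583 CPM in XCKO. The groups did not overlap, and library 3 was the highest in each. The level was 2.02-fold higher in XCKO (1.01 ± 0.22, adjusted p = 0.029 by edgeR's quasi-likelihood test). The call was lost without XCON 1, XCON 2, XCKO 1 or XCKO 3, with a largest adjusted p of 0.090 without XCKO 3. By FPKM Fbp1 was below Pck1 in the XCON means (388 ± 97 against 480.3 ± 88) and above it in the XCKO means (802 ± 120 against 593 ± 170), with spreads of the same order as the gaps in XCON. Fbp2, the muscle form, had 19, 8 and 8 reads in XCON and 0, 3 and 0 in XCKO.

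The promoter of Fbp1 is shown for contrast with those printed for Pcx and Pgk1, since none of the 4 motifs searched occurs in it. The same holds for the promoters found for Slc37a4, Pfkl, Tpi1 and Pgm2, which also rose. The Fbp1 stretch is chr13:62888283-62888532, minus strand, from RefSeq on GRCm38.p6.
Fbp1: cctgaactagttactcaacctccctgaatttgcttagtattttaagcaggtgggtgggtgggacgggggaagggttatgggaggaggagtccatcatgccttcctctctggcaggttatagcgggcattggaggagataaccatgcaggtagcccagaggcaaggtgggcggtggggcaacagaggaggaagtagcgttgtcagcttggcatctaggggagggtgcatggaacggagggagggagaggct

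Slc37a4 (ENSMUSG00000032114, chr9:44396852-44402968, plus strand) codes for the transporter that brings glucose 6-phosphate into the endoplasmic reticulum, where glucose is released. It stood at 121, 202 and 166 CPM in XCON and 303, 282 and 307 CPM in XCKO. The XCKO libraries lay close together and all above the controls (0.87 ± 0.21, adjusted p = 0.036 by edgeR's quasi-likelihood test). The call held only when XCON 2 was the library left out, with a largest adjusted p of 0.091 without XCKO 3.

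The other enzymes of the last and the phosphoenolpyruvate step did not pass. G6pc, the hepatic glucose 6-phosphatase, was read at 775, 304 and 453 CPM in XCON and 571, 947 and 737 CPM in XCKO (0.56 ± 0.35, adjusted p = 0.32 by edgeR's quasi-likelihood test). Its controls spread widely, XCON 1 lying above 2 of the XCKO libraries. Pck1, cytosolic phosphoenolpyruvate carboxykinase, stood at 1569.6, 1489.9 and 2004 CPM in XCON and 1385, 2547 and 2185 CPM in XCKO (0.27 ± 0.26, adjusted p = 0.51). XCKO 1 was the lowest library of all for Pck1 and the highest for Pcx. The mitochondrial form Pck2 had −0.30 (adjusted p = 0.39) and the ubiquitous phosphatase G6pc3 0.05 (0.87). Pck1 made up 99.8% or more of the summed Pck1 and Pck2 FPKM in every library, and G6pc 96.6% to 98.9% of the summed G6pc and G6pc3 FPKM.

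Of the fructose enzymes, Khk rose and Tkfc did not pass. Khk, ketohexokinase (ENSMUSG00000029162, chr5:30921431-30931248, plus strand), phosphorylates fructose. Its levels were 356, 342 and 359 CPM in XCON and 829, 579 and 858 CPM in XCKO. The controls were nearly equal and all XCKO libraries lay above them, XCKO 2 the least. The level was 2.14-fold higher in XCKO (1.10 ± 0.20, adjusted p = 0.018 by edgeR's quasi-likelihood test), and the adjusted p without XCKO 3 was 0.062. Tkfc, the triokinase that phosphorylates the glyceraldehyde made from fructose, stood at 354, 268 and 452 CPM in XCON and 553, 428 and 567 CPM in XCKO (0.53 ± 0.23, adjusted p = 0.16), with XCON 3 above XCKO 2.

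In glycogen turnover 2 of 9 tested genes rose and none fell. Ppp1r3b (ENSMUSG00000046794) codes for the hepatic subunit that brings protein phosphatase 1 to glycogen, where it activates glycogen synthase. Its levels were 133, 136 and 221 CPM in XCON and 347, 287 and 280.1 CPM in XCKO. The groups did not overlap, although XCON 3 lay well above the other controls (0.90 ± 0.23, adjusted p = 0.044 by edgeR's quasi-likelihood test). The call held only without XCON 3 and reached an adjusted p of 0.12 otherwise. Ppp1r3c, a related targeting subunit, had 0.14 (adjusted p = 0.77), and the Ppp1r3b share of the summed FPKM of the pair was 73.8% ± 5.4 in XCON and 82.9% ± 2.7 in XCKO, with no overlap.

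The row listed as Pgm2 (ENSMUSG00000025791, chr4:99929414-99987294, plus strand) also rose. RefSeq gives this gene the symbol Pgm1, and gives Pgm2 to the row listed as Pgm1 (ENSMUSG00000029171). Phosphoglucomutase interconverts glucose 1-phosphate and glucose 6-phosphate, linking glycogen to glycolysis. Pgm2 as listed stood at 104, 105 and 141 CPM in XCON and 175, 177 and 206 CPM in XCKO, with no overlap and a log2 fold change of 0.67 ± 0.18. Its adjusted p of 0.0499 by edgeR's quasi-likelihood test was just inside the threshold, and the call held only without XCON 3, with an adjusted p of up to 0.13. It made up 92.7% ± 1.3 of the summed FPKM of the pair in XCON and 95.2% ± 2.6 in XCKO, while Pgm1 as listed had 0.05 ± 0.35 (adjusted p = 0.93).

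The enzymes that build and break glycogen itself did not pass. Gys2, hepatic glycogen synthase, stood at 61.9, 77.1 and 83.4 CPM in XCON and 98.9, 107 and 109 CPM in XCKO. The groups did not overlap and the XCKO libraries lay close together (0.50 ± 0.16, adjusted p = 0.079 by edgeR's quasi-likelihood test). Pygl, hepatic glycogen phosphorylase, was at 317, 257 and 453 CPM in XCON and 486, 424 and 446 CPM in XCKO (0.40 ± 0.23, adjusted p = 0.27), where XCON 3 was within the XCKO range. The branching enzyme Gbe1 had 0.40 ± 0.16 (adjusted p = 0.13), with groups that did not overlap. Ugp2, which makes UDP-glucose, had 0.20 (0.50) and glycogenin, Gyg, −0.33 (0.40).

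**Figure D4:**
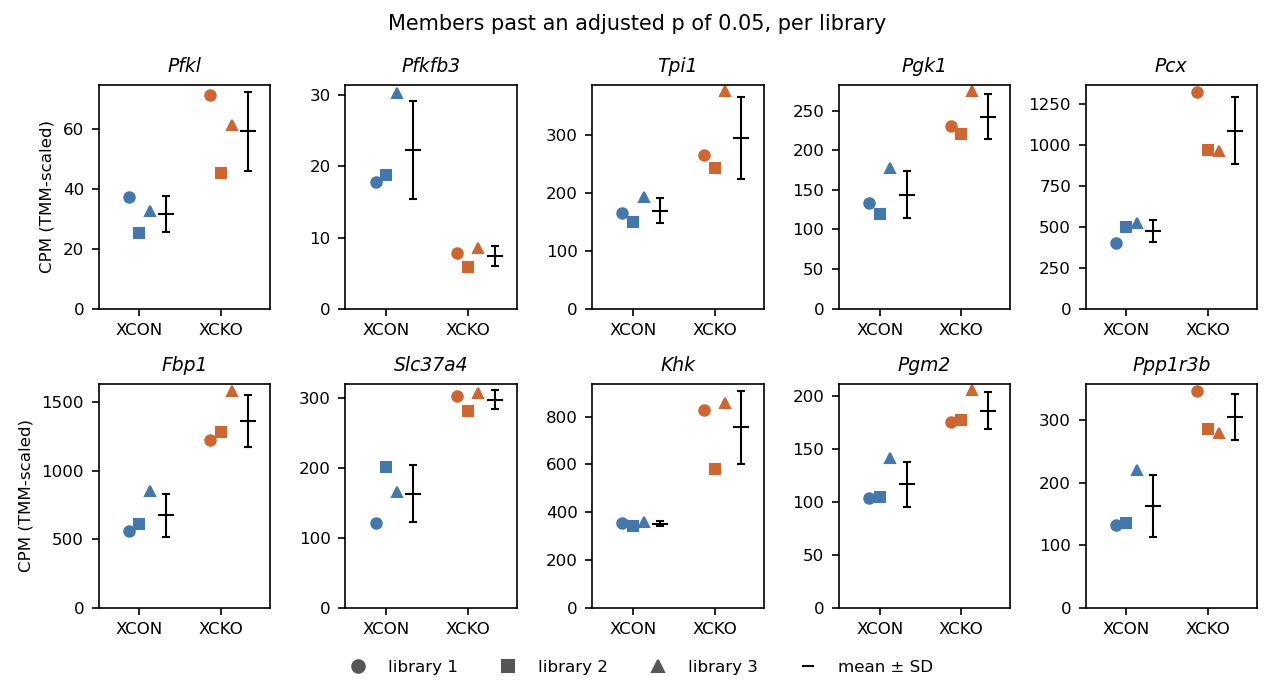
CPM of the 10 genes that passed (y axes, each from 0), by library (points) in XCON and XCKO, with bars for the mean ± SD of 3 libraries. No panel has an XCKO library within the XCON range, and Pfkfb3 is the panel in which XCKO lies lower.

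Across the 9 genes that rose, the libraries of a group resembled each other. The median log2 ratio of these genes to their XCON means was 0.89, 0.72 and 0.95 in XCKO 1, 2 and 3 and −0.17, −0.15 and 0.19 in XCON 1, 2 and 3. These values describe genes picked for that difference. Over all 41 tested carbohydrate genes the medians were 0.45, 0.30 and 0.38 in XCKO and −0.03, −0.08 and 0.15 in XCON. XCKO 2 was the lowest of its group in both.

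RefSeq promoters were found for 40 of the 42 symbols, 61 promoters in all, and Gys2 and Ppp1r3b have none there. For 46 of the 61, the bases after the start were found in a transcript of the gene. In the 250 bases before the start, on either strand, GACGTG, the core of the element bound by XBP1 and ATF6, was found in 16.4% of the 61 promoters and in 5.20% of all 32851. CACGTG, the E-box bound by ChREBP, MYC and other factors, was found in 16.4% and 6.02%. TGACGTCA, the cAMP response element, was found in 1.64% and 1.55%, and TGTTTAC, a forkhead word, in 0% and 3.17%. Among the genes that passed, GACGTG lay in at least 1 promoter of Pcx, Pgk1 and Pfkfb3 and CACGTG in at least 1 of Pcx, Khk and Pfkfb3. Both words thus occurred before genes that rose and before the gene that fell. Fbp1, Slc37a4, Pfkl, Tpi1 and Pgm2, which also rose, held none of the words searched. GACGTG also lay before Aldoa, Hk2, Ldha, Pgm1, Pkm and Ugp2, which did not pass. CACGTG lay before G6pc3, Ldha, Ldhd, Pfkfb2, Pfkm and Ppp1r3c, which did not pass, and before the untested Fbp2. In Pcx both words lay in 1 of its 2 promoters. In Pfkfb3 each lay in a different one of 2, CACGTG 53 bases before an internal start and GACGTG 61 bases before the other. The promoters of Ldha, Pgm1 and Ugp2 with GACGTG, and those of Ldha and Pfkfb2 with CACGTG, were not among the 46. A single GACGTG site of Aldoa was counted in 2 overlapping promoters. CACGTG and CACGTC share letters, and promoters of 1 gene overlap, so the shares are descriptions of letters and not of binding.

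Neighbouring paths were read from gene lists chosen alongside. Of 21 tested regulators of glucose and lipid metabolism 2 rose (9.52%) and none fell, beside 5.21% and 4.05% of all tested genes. Srebf1, whose product drives insulin-responsive lipid synthesis, stood at 535, 805 and 573 CPM in XCON and 1275, 1851 and 1678 CPM in XCKO (1.33 ± 0.24, adjusted p = 0.017 by edgeR's quasi-likelihood test), with no overlap. Cebpa, a hepatocyte factor that acts on gluconeogenic genes, also rose (1.05, adjusted p = 0.030). The call of Srebf1 was lost without XCON 3 or XCKO 3, with a largest adjusted p of 0.055, and that of Cebpa without XCON 1, XCON 3, XCKO 2 or XCKO 3, with 0.088.

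Of 16 tested genes of pyruvate entry and lactate transport 2 rose (12.5%) and none fell, beside 5.21% and 4.05% of all tested genes. Pdk2, which inactivates pyruvate dehydrogenase, was at 52.7 ± 1.8 CPM in XCON and 96.7 ± 16 CPM in XCKO (0.88, adjusted p = 0.018 by edgeR's quasi-likelihood test). The other kinases of its family did not pass by that test and differed in direction. Pdk4 had the lowest log2 fold change of the list, −3.07 ± 0.93 (adjusted p = 0.097). It stood at 77.5 ± 65 CPM in XCON and 9.18 ± 5.6 CPM in XCKO, with groups that overlapped. Pdk3 had −1.29 (adjusted p = 0.26) and Pdk1 0.44 (0.19). Bsg, the chaperone of the lactate transporters, was at 438 ± 65 and 992 ± 190 CPM (1.18, adjusted p = 0.017). The call of Bsg was lost without XCON 3 or XCKO 3, with an adjusted p of up to 0.060, and that of Pdk2 without XCON 1 or XCKO 3, with up to 0.056.

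All 11 tested genes of glycerol handling and the redox shuttles had positive log2 fold changes, with a median of 0.57. Of these 1 passed (9.09%), while 5.21% of all tested genes rose. This was Gpd1, which links glycerol 3-phosphate to the triose phosphates, at 152 ± 33 CPM in XCON and 278 ± 37 CPM in XCKO (0.87, adjusted p = 0.034 by edgeR's quasi-likelihood test), a call that held only without XCON 3 and reached 0.093 without XCON 1. Of 6 tested genes of polyol, fructose and galactose metabolism 1 rose (16.7%). Galk1, galactokinase, stood at 29.3, 23.0 and 29.9 CPM in XCON and 74.0, 58.6 and 74.2 CPM in XCKO (1.33 ± 0.17, adjusted p = 0.0082), and it passed in all fits without 1 library. Of 18 tested genes of glycogen control 1 rose, a share of 5.56%, near that of all tested genes. It was Ppp1cc, a catalytic subunit of protein phosphatase 1 (0.54, adjusted p = 0.041, and above the threshold in every fit without 1 library). None of the 7 tested genes of the pentose phosphate path and none of 8 other glycolytic isozymes passed, with medians of 0.15 and 0.11.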

How the data were processed

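RNA-seq of 6 hepatocyte libraries was read from 1 table of the whole series. The authors deposited unscaled counts of reads for every Ensembl gene, which were the unit of the tests, and FPKM values, used for isozyme shares and for levels compared between genes. The deposited means of each group hold a signal, scaled counts, and were not tested. The tool behind the authors' deposited log2 fold changes and p-values is not stated, and the deposited gene length is another column. The submitters' processing notes list Bowtie 0.12.2, and mm8 beside mm10 as builds, with no roles. Neither the read counter nor its strand setting was given in the sources used here. Coordinates are those of the table, which match GRCm38 (mm10). The number of per-sample columns left unused was 0.

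Of 54532 rows, 27928 had no read. Genes kept by edgeR's filterByExpr at its defaults were scaled by TMM (factors 1.088, 1.086 and 1.117 in XCON, 0.9157, 0.9738 and 0.8498 in XCKO) and tested on group with edgeR's robust quasi-likelihood F test (version 4.0.16, in R 4.3.3), with Benjamini-Hochberg adjustment over all tested genes and a threshold of 0.05. The biological coefficient of variation was 25.8%. An SE is the size of a log2 fold change over the root of its F statistic. The procedure was tested on simulated data, where the share of false calls exceeded the threshold when dispersions were drawn per gene and stayed under it with trended dispersions, so calls just inside the threshold are the least certain. Alternatives were median-of-ratios size factors, library totals, no filter, a filter of 5 CPM in 3 libraries, DESeq2 1.42.0, limma-voom (limma 3.58.1), limma on the log2 scale of FPKM plus 1 or plus 0.1, a replicate block, each library left out, a length trend removed and mitochondrial genes removed.

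All genes of the list may be named. Values in every library are given for those past 0.05 and for Gckr, Pfkl, Pklr, Pck1, G6pc, Fbp1, Khk, Gys2 and Pygl. Hk3, Pfkp, Tkfc, Ldha, Gapdh, Pkm and Fbp2 were given in every library after their values were seen. Of each related list up to 4 genes past 0.05 are named, and Pdk1, Pdk3 and Pdk4 were added after their values were seen. The genes, lists and markers were chosen with earlier results of these data known.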

Additional observations from a re-analysis of the deposited data

How the results depend on the processing

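Of the 9 rising carbohydrate genes and 1 falling gene, the counts by edgeR's quasi-likelihood test were 8 and 1 with size factors and 9 and 1 without mitochondrial genes. With library totals as the scale the median of all genes moved from −0.05 to −0.31, 2358 genes were called instead of 1378, and 3 carbohydrate genes rose and 3 fell. The negative calls then included Hk3 and Pfkp, and the log2 fold changes of Hk2 (−0.001), Aldoa (−0.16), G6pc3 (−0.21), Pgm1 (−0.22), Ugp2 (−0.07) and Ppp1r3c (−0.13) turned negative. Without a filter 2160 genes were called, with 13 and 2 carbohydrate genes. The filter of 5 CPM gave 2 lower genes, limma-voom 2, and DESeq2 2538 genes with 14 higher and 3 lower. Limma on log2 FPKM gave 6 and 1 with either pseudocount. With the length trend removed 4 rose, Tpi1, Pgk1, Fbp1, Slc37a4 and Pgm2 being lost. With the replicate block 322 genes were called, 1 carbohydrate gene higher and 1 lower, Pfkl and Pfkfb3. The deviations of same-numbered libraries from their group means correlated with r of 0.0554, 0.0765 and −0.168. For the other pairs r was between −0.158 and 0.106. Whether same-numbered libraries share more than a number cannot be told from these values. Leaving out 1 library gave 309 to 810 genes, 1 to 7 carbohydrate genes higher and 1 to 2 lower. The cause of these losses was not tested, except that fewer libraries were fitted there.

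Reversals were seen only in genes that did not pass. Without 1 library the log2 fold changes ranged from −0.31 to 0.22 for Hk1, −0.06 to 0.47 for Hk2, −0.42 to 0.39 for Pgm1, −0.13 to 0.35 for Ppp1r3c, −0.33 to 0.02 for Pfkfb1, −0.08 to 0.16 for G6pc3, −0.03 to 0.35 for Aldoa, −0.46 to 0.16 for Pkm and −0.31 to 0.02 for Gckr. Pgm1 was −0.01 with the 5 CPM filter, −0.07 with limma-voom, −0.03 with a pseudocount of 0.1, −0.06 with the replicate block and −0.02 without the length trend. G6pc3 was −0.01 with the 5 CPM filter and −0.06 without the length trend, where Hk1 was 0.10. With 3 libraries a group, the exact order of the levels of close genes cannot be settled, and genes of low count such as Fbp2 have no test.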
